A study of Mus musculus with 15 samples.

Results

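The ubiquitin-conjugating enzymes (E2s) were described in the RNA of extracellular vesicles (EVs) from mouse plasma. All gene symbols of the deposited count tables that begin with Ube2 and a further letter were taken, without those marked as pseudogenes by -ps in the symbol, which gave 40 of 43472 gene rows. Of these, 37 are protein coding in the GENCODE M21 annotation of mm10, Ube2d4 and Ube2nl are processed pseudogenes there, and Ube2uos is an antisense gene. The name is wider than the enzyme class: Ube2cbp is a ligase named for binding an E2, and Ube2v1 and Ube2v2 are E2 variants without the catalytic cysteine.

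Bulk RNA-seq was available for 15 libraries, 3 from WT (black 6) mice, 6 from dystrophic mice and 6 from hypertrophic mice. The dystrophic mice were Sgcb null, so they lacked beta-sarcoglycan, a part of the complex that anchors the muscle fibre membrane. The hypertrophic mice are MAGIC-F1 in the sample labels, a line that carries an engineered growth factor, and Mstn-null in the methods of the study, which is a line without myostatin, so only the condition was used. By the study's methods each sample held EVs pooled from 2 to 3 mice aged 3 to 6 months, with an amplification step ahead of the library preparation. Whether the libraries of a condition came from different mice is not given in the sources used here. The labels call the material serum in one place and plasma in another. No promoter or cell type for the engineered growth factor is given in the sources used here.

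Depth and library numbering touch every result below. Between 27227 (WT 1) and 32563362 (dystrophic 6) reads per library were counted on genes, so a count of 0 allows up to 3 reads, which is between 0.0921 and 110 CPM, the reads on a gene scaled to a common library total (counts per 1000000). In dystrophic 4 to 6 and hypertrophic 1 to 3 the sample title and the counts bear different numbers, those of the one condition standing on the other. The counts of all hypertrophic libraries carry the higher numbers and all other counts the lower ones, so the series of the counts and the hypertrophic condition cannot be told apart. The hemoglobin genes, markers of red cell RNA, took 2.23% to 15.3% of the reads. Platelet markers summed to between 9380 and 33539 CPM, with 9380 to 19886 CPM in the dystrophic libraries and 14295 to 33539 CPM in the hypertrophic ones. The EV markers summed to between 4217 and 34447 CPM, mostly through Cd9, which averaged 12204.5 CPM over the 15 libraries. The other EV markers averaged 170 (Cd81), 96.4 (Tsg101), 73.5 (Cd63) and 55.6 CPM (Pdcd6ip) and were detected in 8 to 11 libraries. The skeletal muscle markers were detected in a median of 2 libraries, with sums of at most 237 CPM.

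Ubiquitin is attached to proteins by a cascade in which an E1 enzyme activates it, an E2 carries it as a thioester, and an E3 ligase helps to pass it to the target. The E2 largely sets which kind of chain is built, and dedicated E2s carry the ubiquitin-like proteins NEDD8 and ISG15. In muscle this system feeds the proteasome during wasting, and in maturing red cells it clears the proteins and organelles that the mature cell no longer holds.

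The Ube2d family holds the only member, Ube2d3, whose hypertrophic libraries do not overlap with the others, and its members resemble each other in sequence. Below is a stretch of the coding sequence, coding bases 325 to 384 of 444, for 3 members from the GENCODE M21 transcripts, each in the 5′ to 3′ direction of the gene, with capitals where the base differs from Ube2d3. The stretch was chosen because Ube2d1 and Ube2d3 differ least in it.

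Ube2d3: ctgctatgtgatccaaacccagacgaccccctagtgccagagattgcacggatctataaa

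Ube2d1: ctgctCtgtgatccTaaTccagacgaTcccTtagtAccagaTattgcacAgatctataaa

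Ube2d2b: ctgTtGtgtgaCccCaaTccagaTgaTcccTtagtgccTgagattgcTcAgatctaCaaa

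Ube2d3 lies on chromosome 3 (mm10, 135438149 to 135468198, plus strand), Ube2d1 on chromosome 10 (71254980 to 71285262, minus strand) and Ube2d2b on chromosome 5 (107830099 to 107831776, plus strand). In this stretch Ube2d1 differed from Ube2d3 at 8 bases and Ube2d2b at 12. Over the whole coding sequence Ube2d1 was 77.3% and Ube2d2b 83.1% identical to Ube2d3. None of the 395 windows of 50 bases, the length of the reads, was identical between Ube2d3 and either of them, so a read from the coding sequence of Ube2d3 differs from both. Ube2d1 was not compared with Ube2d2b, and Ube2d2a was not compared.

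Of the 40 symbols, 29 had at least 1 read in any library, which is 72.5%, against 30.6% of all symbols. The other 11 were at 0 in all 15 libraries, namely Ube2cbp, Ube2d2b, Ube2d4, Ube2dnl1, Ube2dnl2, Ube2nl, Ube2ql1, Ube2t, Ube2u, Ube2uos and Ube2v1. Ube2v1 is a special case among these 11, since 77.3% of its exon length lies, on the same strand, in exons of Gm20431, a gene that reads through it, and Gm20431 was at 0 in all libraries as well. Whether reads from this overlap were left out in counting was not tested. No member was detected in all 15 libraries. Ube2l6 and Ube2r2 reached 13 libraries, 11 members were detected in at least 10, 13 in 6 to 9 and 5 in 3 to 5. The detected members were found in a median of 8 libraries, against 3 libraries for all detected genes, and 37.9% of them were found in at least 10 libraries, against 9.68% of all detected genes. In these comparisons the members, nearly all protein coding, were not matched to the other genes for gene type or expression level.

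**Figure D1:**
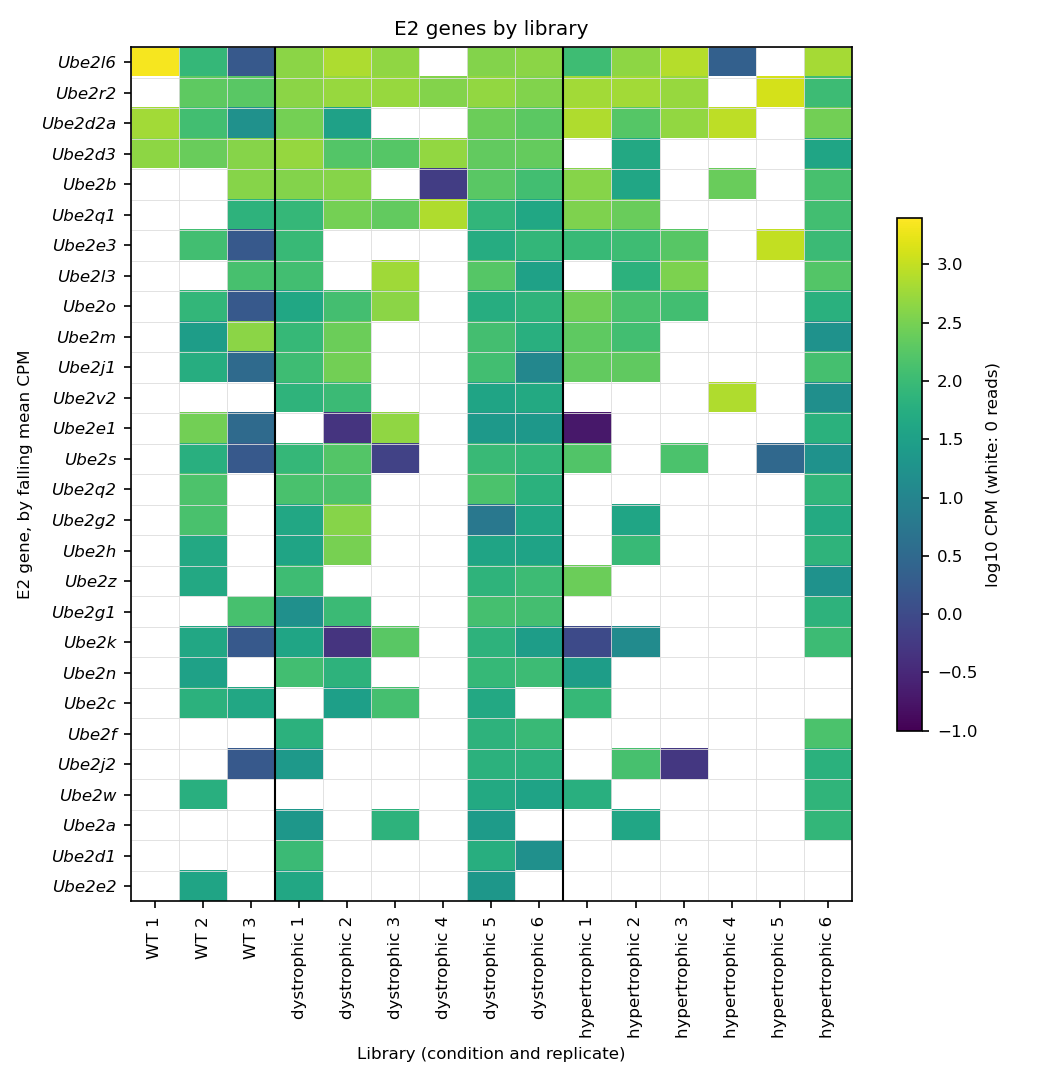
CPM of 28 of the 29 detected E2 genes (rows, by falling mean) in the 15 libraries (columns, WT, then dystrophic, then hypertrophic), as log10 CPM in colour, with white for 0 reads. White cells are spread over all 3 conditions, and WT 1, dystrophic 4, hypertrophic 4 and hypertrophic 5 hold 3 or 4 members each.

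Detection was patchy rather than graded. The 29 detected members made 435 pairs of a member with a library, and 232 of them (53.3%) held reads. Only 18 of these 232 (7.76%) held 1 to 9 reads, against 15.7% of all gene and library pairs with reads. Over all libraries a member was thus mostly either absent or well covered. WT 3 was an exception, where only 10 of 18 detected members held at least 10 reads. In 341 pairs the other libraries of the same condition predicted at least 10 reads, and 137 of these (40.2%) held 0, against 56.1% for all genes. The E2s thus had fewer such gaps than genes in general, but still many. The gap with most predicted reads was Ube2b in WT 2, where 1525 reads were predicted and none was counted, in a library of 7738568 reads. That prediction rests on the 237 reads of WT 3 alone, since WT 1 held none. Ube2c in dystrophic 6, the deepest library, held none of 1330 predicted, and Ube2l6 in dystrophic 4 none of 779. Among the 29 members there were 27 different patterns of detection over the libraries, and only Ube2g2 with Ube2h and Ube2j1 with Ube2m shared theirs. The part of low RNA input and amplification in these gaps was not tested.

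The number of E2 genes detected varied within every condition as much as between them. The WT libraries held 3, 20 and 18, a mean of 13.7 ± 9.29 (SD, n = 3). The dystrophic libraries held 26, 20, 11, 4, 29 and 26, a mean of 19.3 ± 9.87 (SD, n = 6), and the hypertrophic ones 17, 17, 9, 4, 3 and 25, a mean of 12.5 ± 8.62 (SD, n = 6). The ranges overlap across the 3 conditions, and the differences between the means are smaller than the SD within any of them. Sampled down to the depth of WT 1, the expected numbers were 9.69, 15.9 and 10.2 in WT-, dystrophic- and hypertrophic-derived EVs. At a minimum of 5 reads the WT libraries held 3, 20 and 10. The dystrophic ones then held 26, 18, 10, 3, 29 and 26, and the hypertrophic ones 16, 17, 7, 3, 2 and 25. Over the members as a set, 25 were seen in any WT library, all 29 in any dystrophic and 27 in any hypertrophic library, and 24 in every condition. Ube2j2 counts as seen in WT through 1 read in WT 3. Ube2a, Ube2d1, Ube2f and Ube2v2 were at 0 in all 3 WT libraries, and Ube2d1 and Ube2e2 in all 6 hypertrophic libraries. With 3 WT libraries against 6 of each other condition, these numbers are not alike in their chance to find a gene.

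The summed share of reads overlapped between the conditions as well. The E2s took 0.327%, 0.203% and 0.210% of the reads in the WT libraries, a mean of 0.247% ± 0.0695 (SD, n = 3). In the dystrophic libraries the share was 0.369%, 0.427%, 0.328%, 0.163%, 0.338% and 0.259%, a mean of 0.314% ± 0.0919 (SD, n = 6). In the hypertrophic libraries it was 0.369%, 0.268%, 0.259%, 0.194%, 0.231% and 0.280%, a mean of 0.267% ± 0.0589 (SD, n = 6). The lowest and the highest share were both in dystrophic libraries, and the 3 ranges overlap. Mitochondrial genes, part of the same totals, took 19.8% to 22.9% of the reads in WT libraries. In dystrophic libraries they took 6.43% to 19.2% and in hypertrophic ones 5.88% to 19.1%, both below WT without overlap. The highest share was 2.61 times the lowest, with a coefficient of variation of 26.9% over the 15 libraries, while that of single detected members ran from 77.3% (Ube2r2) to 281% (Ube2v2). A sum over many genes varies less than its members by construction, and sums over other genes were not set beside it. In WT 1 the share rests on 89 reads (95% Wilson interval 0.266% to 0.402%, counting error only). A share cannot tell fewer vesicles of one source from less RNA per vesicle.

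**Figure D2:**
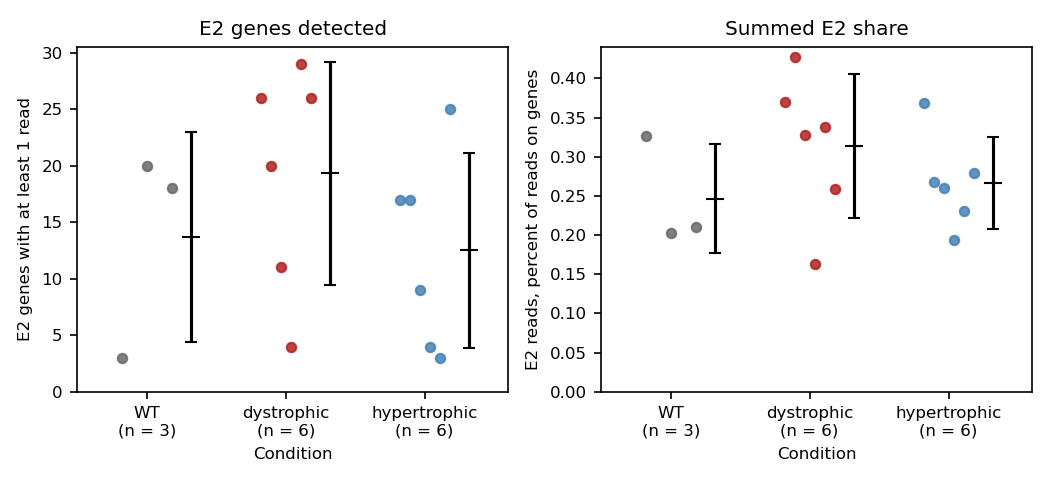
Left, E2 genes with at least 1 read, and right, their summed share of the reads on genes in percent, with 1 point per library and bars for the mean ± SD. The number detected runs from 3 to 29, the share from 0.163% to 0.427%, and the conditions overlap in both.

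The members that made up this share changed from library to library. Over the 15 libraries 8 different members took most of the E2 reads in at least 1 library, Ube2l6 in 5, Ube2r2 in 3, Ube2d2a in 2, and Ube2d3, Ube2e1, Ube2l3, Ube2m and Ube2q1 in 1 each. In the libraries with few members 1 gene dominated: Ube2l6 held 67.4% of the E2 reads in WT 1, Ube2r2 56.9% in hypertrophic 5, Ube2d2a 47.9% in hypertrophic 4 and Ube2q1 46.8% in dystrophic 4. Where more members were seen, the leading gene held less, down to 13.6% for Ube2d3 in dystrophic 1. Of the summed mean CPM of all members, 4 genes (Ube2l6, Ube2r2, Ube2d2a and Ube2d3) held 47.5% and the leading 10 held 73.3%. Per kilobase of exon, mean levels were 270 CPM for Ube2l6, 116 for Ube2r2, 112 for Ube2d2a, 81.6 for Ube2b and 50.7 for Ube2m, and that of Ube2d3 was 41.7.

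**Figure D3:**
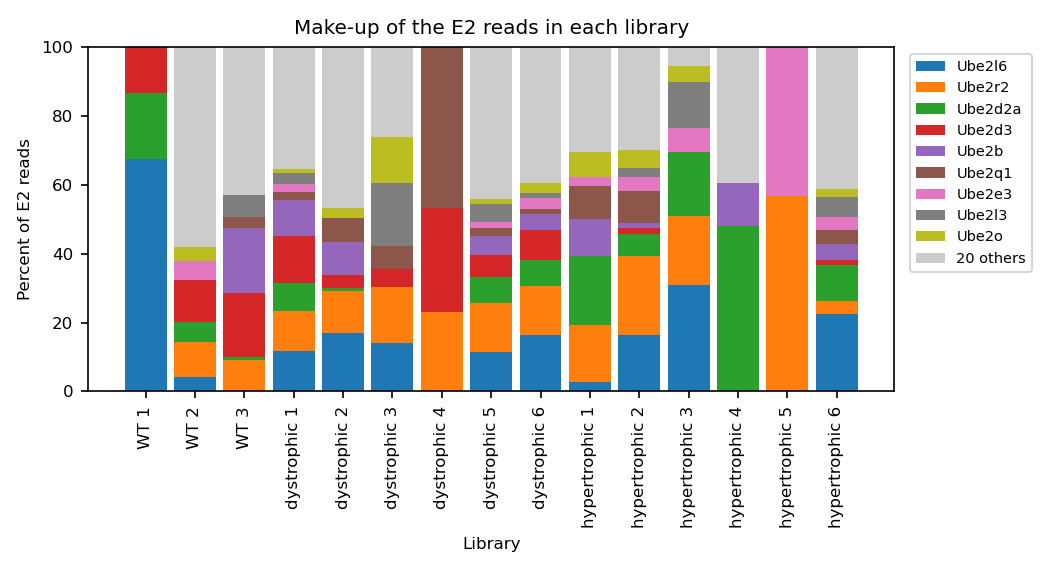
Percent of the E2 reads of each library that fell on 9 of the 10 members with the highest mean CPM and on the 20 others. Ube2l6 fills 67.4% of the bar of WT 1 and Ube2r2 56.9% of that of hypertrophic 5, while the leading member holds only 13.6% in dystrophic 1.

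To test single genes between conditions, the counts of all genes were fitted with edgeR's quasi-likelihood test over the 15 libraries. No member passed an adjusted p of 0.05 (Benjamini-Hochberg over all genes tested) in any comparison, and few genes of any kind did. For dystrophic- against WT-derived EVs 0 of 29 members were called, beside 0.0145% of 6887 genes. For hypertrophic against WT 0 of 29 were called, beside 0.029%, and for hypertrophic against dystrophic 0 of 29, beside 0.0145%. At an unadjusted p under 0.05 there were 0, 2 and 3 members in these comparisons, beside 139, 552 and 823 of all genes. The median log2 fold change of the members was 1.20, 0.22 and -0.73, beside 1.38, 0.66 and -0.52 for all genes. With members at 0 in a whole condition set to the bound that 3 counts over that condition give, and Ube2d1 left out where both conditions are at 0, the medians were 1.20, 0.46 and -0.73. The spread within conditions was wide, with a biological coefficient of variation of 3.04 over all genes.

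With DESeq2 in place of edgeR, Ube2a, Ube2f and Ube2v2 were called higher in dystrophic- and in hypertrophic- than in WT-derived EVs. They are 3 of the 4 members at 0 in all WT libraries, and these 3 calls are 10.7% of the 28 members with an adjusted p, beside 21.1% of all genes called for dystrophic against WT and 24.5% for hypertrophic against WT. The members' shares lie below those of all genes. DESeq2 called none of the members for hypertrophic against dystrophic, beside 5.17% of all genes, and 3 members passed an unadjusted p under 0.05, beside 773 genes.

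Among the E2s that start chains, Ube2d3 separated the hypertrophic libraries from all others. Ube2d3, a broadly acting partner of many ligases, stood at 441, 244 and 392 CPM in the WT libraries and at 503, 170, 177, 491, 219 and 232 CPM in the dystrophic ones. In the hypertrophic libraries it was at 0, 45.3, 0, 0, 0 and 38.8 CPM. The 441 CPM of WT 1 come from 12 reads in the shallowest library. All 9 WT and dystrophic libraries thus lay above all 6 hypertrophic ones, with no overlap. The log2 fold change was -4.45 (SE 2.09, edgeR adjusted p = 0.430) for hypertrophic against WT and -4.27 (SE 1.94, edgeR adjusted p = 0.245) for hypertrophic against dystrophic, so neither passed. Among all genes 0.276% lay below WT and 0.145% below dystrophic in the hypertrophic libraries without overlap, and Ube2d3 was the only member among them in both. These comparisons share the hypertrophic libraries. The split also coincides with the number series of the counts, and with the 6 crossed libraries exchanged between the conditions the log2 fold change for hypertrophic against dystrophic was 0.35 (edgeR adjusted p = 1.0) and that for hypertrophic against WT was -0.95 (edgeR adjusted p = 1.0). Of the transcript windows of 50 bases of Ube2d3, 14.4% are shared with other genes, mainly Spopl.

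Ube2d2a, of the same family and with many of the same ligase partners, did not show this split. It stood at 624, 117 and 16.6 CPM in WT libraries, at 0 to 300 CPM (median 115) in the dystrophic and at 0 to 927 CPM (median 385) in the hypertrophic ones, where 5 of 6 libraries had reads. The 624 CPM of WT 1 come from 17 reads and the 16.6 CPM of WT 3 from 10. The 3 conditions overlap, and all edgeR adjusted p-values between them were at least 0.990. Of its windows of 50 bases 15.2% are shared with other genes, mainly Gm9762, which was at 0 throughout. Whether reads from shared windows were left out in counting was not tested for Ube2d2a or Ube2d3. Ube2d1, the third family member with reads, was found in 3 dystrophic libraries at 98.2, 57.4 and 16.3 CPM and in no other library. It was among the 3 members with the smallest p for dystrophic against WT (edgeR adjusted p = 0.433) and for hypertrophic against dystrophic (edgeR adjusted p = 0.123), where no fold is given because a whole condition was at 0.

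**Figure D4:**
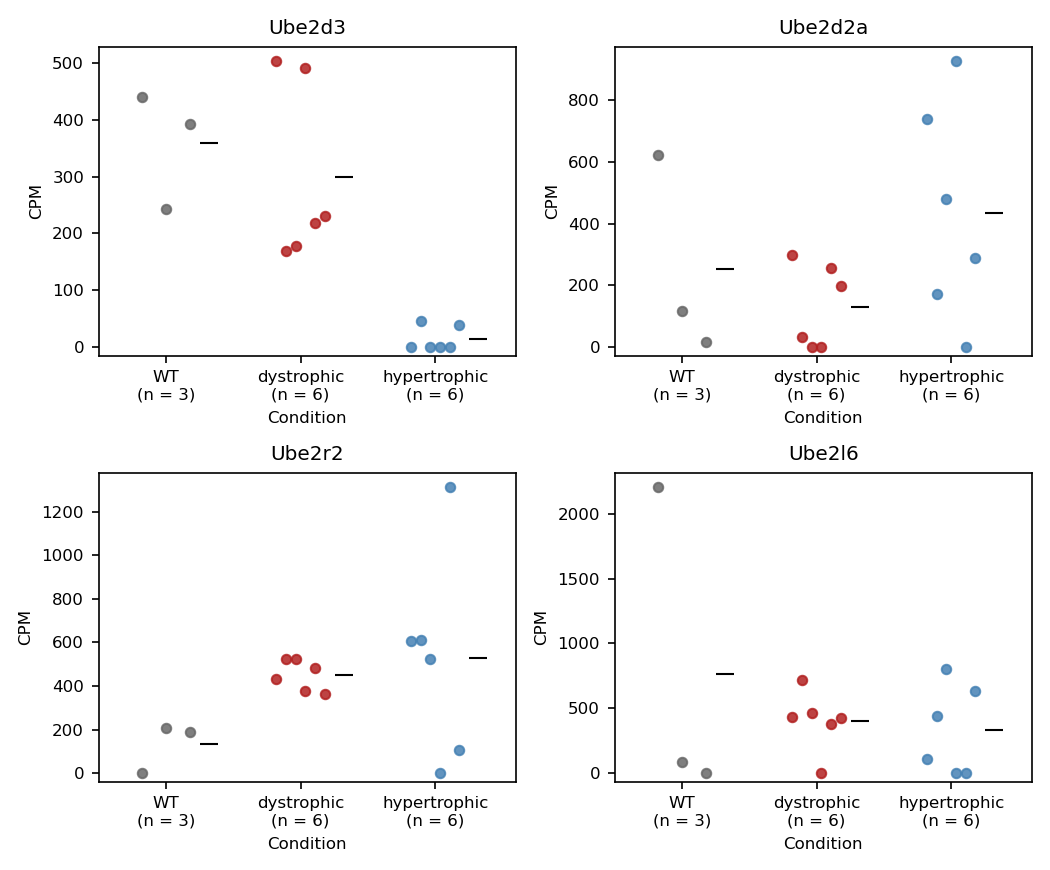
CPM of Ube2d3, Ube2d2a, Ube2r2 and Ube2l6 in each library, with 1 point per library and a bar for the mean of each condition. Ube2d3 lies at or below 45.3 CPM in all hypertrophic libraries and at or above 170 CPM in the others, while Ube2d2a, Ube2r2 and Ube2l6 overlap between hypertrophic and WT libraries.

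The Ube2e enzymes share a catalytic core with the Ube2d family and carry an extended amino terminus. Ube2e3 was at 0, 117 and 1.66 CPM in WT libraries, at 0 to 92.3 CPM (median 26.1) in the dystrophic and at 0 to 992 CPM (median 106) in the hypertrophic ones, the highest value standing in hypertrophic 5. Ube2e1 was at 0, 286 and 3.32 CPM in WT libraries, at 0 to 465 CPM (median 11.4) in the dystrophic and at 0 to 64.4 CPM (median 0) in the hypertrophic ones. Of the exon length of Ube2e1, 51.0% overlaps Nkiras1 on the other strand, which held reads in only 2 libraries, dystrophic 1 and dystrophic 6. Ube2e2 had reads in WT 2 (37.6 CPM) and in 2 dystrophic libraries (43.6 and 21.1 CPM), and its p was the smallest of the members for hypertrophic against WT (edgeR adjusted p = 0.267). Ube2w, which puts ubiquitin on the amino terminus of proteins, was found in 5 libraries, at 60.7 CPM in WT 2 and up to 74.7 CPM in hypertrophic 6.

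Ube2r2, which works with the cullin-based SCF ligases in building degradation chains, was the most regular member. It was at 0, 207 and 190 CPM in the WT libraries and at 432, 525, 526, 379, 480 and 363 CPM in the dystrophic ones. In the hypertrophic libraries it was at 604, 611, 525, 0, 1311 and 105 CPM. All 6 dystrophic libraries lay above all 3 WT libraries without overlap, as did 0.479% of all genes tested, while the hypertrophic libraries span both. The log2 fold change for dystrophic against WT was 1.44 (SE 1.80, edgeR adjusted p = 0.892), which did not pass. WT 1, at 0, has a floor of 110 CPM, and without WT 1 the log2 fold change was 0.88. The E2s of degradation at the endoplasmic reticulum were seen in fewer libraries than Ube2r2, Ube2j1 in 9, Ube2j2 and Ube2g2 in 7 and Ube2g1 in 6. Ube2k, which extends chains on its own, was seen in 10 libraries, though 4 of these values were at or below 13.4 CPM.

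Of the E2s for ubiquitin-like proteins, Ube2l6 led. Ube2l6 carries ISG15, an interferon-induced modifier, and stood at 2204, 86.2 and 1.66 CPM in WT libraries, the first of these being the highest of the series. It was at 0 to 719 CPM (median 428) in the dystrophic and at 0 to 800 CPM (median 274) in the hypertrophic libraries, and the edgeR adjusted p was 1.0 in each comparison. The high value of WT 1 comes from 60 reads in the shallowest library. Uba7, the E1 of ISG15, was detected in 12 libraries and Isg15 itself in 6, and all 3 genes of this route were seen together in 6 libraries. The E2s for NEDD8 are Ube2m, detected in 9 libraries with up to 431 CPM in WT 3, and Ube2f, detected in 4. Ube2f was at 0 in all WT libraries, at 67.5, 69.2 and 97.8 CPM in 3 dystrophic libraries, and at 141 CPM in hypertrophic 6 alone (edgeR adjusted p = 0.433 for dystrophic against WT). Ube2z, an E2 that takes both ubiquitin and FAT10 from its own E1, Uba6, was seen in 6 libraries and Uba6 in 2.

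Ube2b and Ube2a are the mouse forms of yeast Rad6, which ubiquitinates histones and the sliding clamp of replication. Ube2b was at 0, 0 and 394 CPM in WT libraries, at 0 to 401 CPM (median 153) in the dystrophic and at 0 to 396 CPM (median 85) in the hypertrophic ones. Ube2a was seen in 5 libraries, 3 dystrophic (21.4, 69.4 and 25.6 CPM) and 2 hypertrophic (40.5 and 82.6 CPM), and in no WT library. The chain-forming pair of Ube2n with Ube2v2 was seen in 6 libraries for each gene, and Ube2v2 was at 0 in WT and reached 763 CPM in hypertrophic 4, from 344 reads (edgeR adjusted p = 0.433 for dystrophic and 0.430 for hypertrophic against WT). Ube2c and Ube2s, which work with the anaphase-promoting complex of dividing cells, were seen in 6 and 11 libraries. Ube2q1 was at 0, 0 and 69.8 CPM in WT libraries, at 41.1 to 765 CPM (median 154) in all 6 dystrophic ones, and at 0 to 358 CPM (median 58.7) in the hypertrophic ones. Ube2q2, its relative, was seen in 6 libraries.

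Ube2o and Ube2h are the E2s best known from red cell maturation, where Ube2o ubiquitinates ribosomal proteins and unpaired globin chains, and Ube2h is induced late and works with the CTLH ligase. Ube2o was at 0, 82.1 and 1.66 CPM in WT libraries, at 0 to 438 CPM (median 64.3) in the dystrophic and at 0 to 274 CPM (median 89.8) in the hypertrophic ones. Ube2h was at 0, 44.5 and 0 CPM in WT libraries, at 0 to 314 CPM (median 36.1) in the dystrophic and at 0 to 92.7 CPM (median 0) in the hypertrophic ones. All 7 libraries with Ube2h also had Ube2o, and 4 libraries had neither, although the red cell markers Alas2 and Bpgm were detected in all 15. For Ube2h, 45.8% of the windows of 50 bases are shared with other genes, mainly Gm26526, which was at 0 in all libraries. Whether reads from these windows were left out in counting was not tested, so the libraries without Ube2h reads may still hold its RNA. Ube2l3, which serves HECT- and RBR-type ligases such as parkin, was at 0, 0 and 133 CPM in WT libraries, at 0 to 596 CPM (median 75.7) in the dystrophic and at 0 to 347 CPM (median 33.7) in the hypertrophic ones. Of its exon length 29.8% overlaps Ydjc on the other strand.

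Since hemoglobin reads differ between the libraries, the E2 reads were set beside them. The hemoglobin share averaged 5.60% in WT (2.23% to 8.42%), 8.88% in dystrophic (4.49% to 15.3%) and 5.25% in hypertrophic libraries (2.85% to 8.11%). Over the 15 libraries the E2 share and the hemoglobin share had a Pearson's r of 0.0228 and a Spearman's rho of 0.0821, given as a description, since both are shares of the same reads. Without dystrophic 4 and dystrophic 2, the libraries farthest from the median hemoglobin share, r was 0.163. The value turns on single libraries, with an r of 0.471 without dystrophic 4 and of -0.279 without dystrophic 2. Within conditions r was -0.317 over the 6 dystrophic and -0.565 over the 6 hypertrophic libraries. Over the 9 libraries whose titles carry the lower numbers it was 0.537, and over the 6 with the higher numbers -0.583. The relation thus changed sign between subsets. The number of E2 genes detected had an r of -0.291 with the hemoglobin share.

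**Figure D5:**
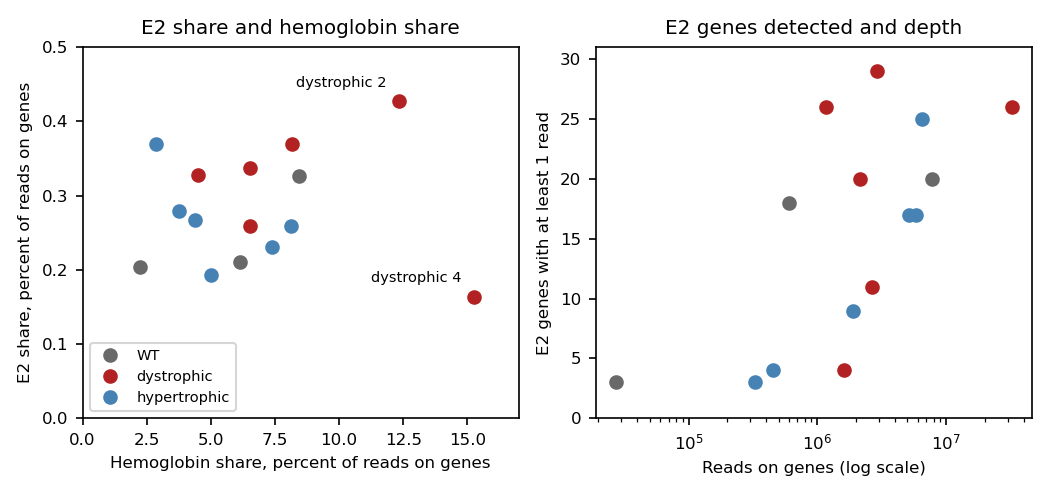
Left, the E2 share against the hemoglobin share, both in percent of the reads on genes, and right, the E2 genes detected against the reads on genes (log axis), with 1 point per library coloured by condition. Dystrophic 2 and 4, the libraries with most hemoglobin, have the highest (0.427%) and the lowest (0.163%) E2 share.

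In a fit of each gene's counts on the log2 of the hemoglobin share, 0 of 27 members tested were called, beside 0.0555% of 5402 genes, and the 3 genes called were Hba-a1, Hba-a2 and Hbb-bs, which define the share. At an unadjusted p under 0.05 there was 1 member, beside 96 genes. With the condition as a term beside the slope there were 6 of 29 members, beside 1302 of 8786 genes, and none of the members was called. The median slope of the members was then -2.60 in place of -0.39, beside -3.11 in place of -0.47 for all genes tested. These medians cover unlike gene sets, because 29 members and 8786 genes passed the filter with the condition term, against 27 and 5402 without it. The member at an unadjusted p under 0.05 without that term was Ube2e1, whose counts changed by -4.94 on the log2 scale per doubling of the share (SE 2.29, edgeR adjusted p = 1.0). DESeq2 called Ube2e1 alone among the 27 members (log2 -5.52, DESeq2 adjusted p = 0.00994), beside 3.92% of all genes. Its reads stood mainly in WT 2 and dystrophic 3, at 286 and 465 CPM, where the hemoglobin shares were 2.23% and 4.49%. Ube2w (edgeR adjusted p = 1.0) and Ube2a (edgeR adjusted p = 1.0) were the next by p. For the red cell E2s Ube2o and Ube2h the edgeR adjusted p of the slope was 1.0 as well.

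The number of E2 genes detected went with depth and more closely with how many genes of any kind a library held. Its Pearson's r was 0.658 (Spearman's rho 0.648) with the log10 of the reads on genes, and 0.538 without WT 1 and dystrophic 6. It was 0.935 over the hypertrophic libraries and 0.333 over the dystrophic ones. With the number of all genes detected r was 0.932 and rho 0.947. The E2s made up 0.290% to 0.605% of the genes detected in a library. The E2 share itself had an r of 0.0206 with the log10 of the reads. These values describe the 15 libraries, which share their amplification, and carry no test.

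Among the genes that encode ubiquitin, Rps27a, a fusion of ubiquitin with a ribosomal protein, was detected in all 15 libraries, at 563, 1028 and 1207 CPM in WT, at 663 to 1227 CPM (median 878) in dystrophic and at 252 to 1320 CPM (median 732) in hypertrophic libraries. Ubb, a polyubiquitin gene, was at 0, 0.388 and 6.65 CPM in WT, at 148 to 634 CPM (median 363) in dystrophic and at 91.2 to 439 CPM (median 244) in hypertrophic libraries. The listed Ubb values of the dystrophic and hypertrophic libraries lay above those of WT without overlap, as did 0.479% of all genes for dystrophic and 0.174% for hypertrophic libraries. WT 1, at 0, has a floor of 110 CPM, which is above the lowest hypertrophic value, so the separation of the hypertrophic libraries from WT is not settled at this depth. Neither difference passed (edgeR adjusted p = 0.433 for dystrophic and 0.430 for hypertrophic against WT).

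All 8 E1 genes looked up were detected in some library, in a median of 5 libraries and none in all 15. All 7 genes of ubiquitin-like modifiers were detected, in a median of 9 libraries, and all 8 genes with an E2 fold but another name (such as Cdc34, Birc6 and Tsg101), in a median of 6.5. Of the 6 muscle ligases, Fbxo32 (atrogin-1) was detected in 4 libraries and Fbxo30 in 5, while Trim63 (MuRF1), Trim72, Fbxo40 and Asb2 were at 0 in all libraries. No gene of these lists passed the edgeR test in any of the comparisons of conditions.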

How the data were processed

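RNA of plasma EVs was sequenced as 50 base single reads in 15 libraries. According to the study's methods the authors aligned the reads with TopHat to mm10, and the submitters' processing notes also name HTSeq and DESeq. The annotation and the strand setting of the counting are not given in the sources used here. The authors deposited raw counts per gene symbol, without normalization. The 5 summary lines per table that name no gene, 57.9% to 99.2% of each table's sum, entered neither library sizes nor tests. Conditions were taken from the sample labels.

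CPM and shares were computed over all gene rows, and a gene with at least 1 count was called detected. Counts were tested with edgeR 4.0.16 in R 4.3.3 (TMM, filterByExpr, quasi-likelihood fit of 3 conditions to all 15 libraries, Benjamini-Hochberg adjusted p under 0.05), and in a second fit on the log2 hemoglobin share (4 genes). The procedure was run on simulated counts whose spread was lower than that of these data, so this does not measure its power here. SEs come from the F statistic. The alternatives run were DESeq2 1.42.0 on the same genes, other scalings and filters, without 37 mitochondrial and 4 hemoglobin genes, each library left out, the crossed libraries exchanged or left out, and the title series (for the slope, the condition) as a term. A missing adjusted p of DESeq2 was kept as missing. The smallest depth, 27227 reads, limits WT 1 to levels above 110 CPM. Intervals and floors (95%, 3 counts) cover counting error only, because amplified copies are not independent molecules. Nothing in the labels says that the libraries of a condition came from separate extractions, so p-values measure only the spread between these libraries.

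Positions, exon overlaps and shared 50 base windows were computed from GENCODE M21 (mm10). Values per library are given for the 10 members with the highest mean CPM, for Ube2h, Ube2o, Ube2l6 and Ube2l3, for every member called, for the 3 members with the smallest p in each fit, and for genes that encode ubiquitin, except for a few items that are not reported here, and further values were chosen after they were seen. The members and the gene lists were chosen with earlier results of these data known.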

Additional observations from a re-analysis of the deposited data

Results flagged for a closer look

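In 40 groups of 6 libraries (the dystrophic or the hypertrophic ones, for the E2 share, the number detected, the hemoglobin share and the 18 named members), 10 had a highest or lowest value whose gap to the next, as a share of the range, exceeded Dixon's 95% critical value. Chance gives about 1 in 20 where values are normally distributed, which these patchy counts are not. All 10 were high values of single members. Dystrophic 3 stood apart for Ube2l3 (596 CPM, next 177), Ube2o (438, next 122), Ube2e1 (465, next 23.2) and Ube2a (69.4, next 25.6). In dystrophic 4 Ube2q1 stood at 765 CPM (next 305), and in dystrophic 2 Ube2h at 314 CPM (next 37.0). In the hypertrophic libraries Ube2e3 stood at 992 CPM in hypertrophic 5 (next 183), Ube2v2 at 763 CPM in hypertrophic 4 (next 15.6), and in hypertrophic 6 Ube2f at 141 CPM (next 0) and Ube2e1 at 64.4 CPM (next 0.195). The E2 share, the number detected and the hemoglobin share held no such value in either condition.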

How the results depend on the processing

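edgeR called 0 members in all 4 fits under the other scalings and filters and without genes, each library in turn (0 to 0) or the 6 crossed libraries. It also called 0 with these exchanged or the title series as a term (comparisons of conditions only) and with the condition as a term or Hbb-bs alone (slope only). DESeq2 called 3 for dystrophic and 3 for hypertrophic against WT, and 1 for the slope, where Ube2e1 passed. Ube2d3 for hypertrophic against dystrophic turned to 0.35 with the crossed libraries exchanged, and against WT it moved from -4.45 to -0.95. Ube2r2 (dystrophic against WT) ran from 0.88 without WT 1 to 1.81 without WT 3. Neither it, Ube2d3 against WT nor Ube2e1 changed sign under the alternatives run. Leaving out each library gave mean numbers detected of 10.5 to 19 in WT, 17.4 to 22.4 in dystrophic and 10 to 14.4 in hypertrophic libraries, and mean shares of 0.207% to 0.268%, 0.291% to 0.344% and 0.246% to 0.281%. Without mitochondrial and hemoglobin genes the mean share was 0.339% in WT, 0.390% in dystrophic and 0.323% in hypertrophic libraries. The WT mean, the lowest with these genes counted, then lay above the hypertrophic and below the dystrophic mean. The r of the E2 and hemoglobin shares ran from -0.279 (without dystrophic 2) to 0.471 (without dystrophic 4), and that of number detected and depth from 0.597 to 0.720, with each library left out, alternatives chosen after seeing the data. With all genes detected in place of depth it was 0.932. No paired analysis was possible because the replicate numbers were given in accession order and pair nothing.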
